A study of Arabidopsis thaliana with 26 samples.

Results

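Developing leaves of Arabidopsis thaliana were compared at 96 h and at 2 h, the widest span of time among the developing leaves of the series. The comparison took the 4 arrays labelled 96 h and the 4 labelled 2 h, 8 of the 26 arrays, and described them across all probe sets other than the array's own controls. All plants were of accession Col-0 (stock N1092) with no transgene named, and the series is the ambient CO2 and ambient light arm of a study of how leaves signal light and CO2 conditions to each other. The leaves were those of insertions 19 to 21 at growth stage 1.19 to 1.21, from a growth room with 10 h of light, 20 °C, 50% humidity and Humax compost. The labels number the replicates without saying whether each came from separate plants, and p-values then cover only the spread between these arrays, which may be technical. They also give no clock time for the start of the hours.

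A young Arabidopsis leaf first grows by cell division, which stops progressively while the cells go on to expand. Division needs histones for new chromatin, a spindle and its checkpoint, and much ribosome synthesis. As cells expand, their walls are loosened and remodelled by expansins, xyloglucan endotransglucosylases and pectin methylesterases, and the leaf turns from an importer of sugar into an exporter as its photosynthesis builds up. Many leaf transcripts also cycle with the day under the circadian clock.

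Over the 4 days, transcripts of the cell cycle, histones, cytosolic ribosomes and nuclear RNA polymerases were lower at 96 h. The list of nuclear RNA polymerases was written after values had been seen. Those of histones and ribosomal proteins were written by locus after the annotation had been seen. All lists were chosen with earlier results of these data known. The tested transcripts of photorespiration, the Calvin cycle and the chloroplast NDH complex were higher, as were several expansins and SWEET sugar transporters and some chaperones. So was the sucrose phosphate synthase gene ATSPS4F, whose list was also written after values had been seen. Only 4 of 16 listed photorespiration genes and 4 of 22 listed Calvin cycle genes were tested. With a control ratio of RNA quality as a covariate, given below, 1 of these 4 Calvin cycle genes rose. Single defence-related genes such as RING1 were higher, while the 6 tested defensins did not pass. Of 13648 probe sets tested, 5708 passed an adjusted p of 0.05 in limma with Benjamini-Hochberg adjustment (41.8%), 2611 higher at 96 h (19.1%) and 3097 lower (22.7%). Counts of gene list members given below are to be set beside these shares. At least 2-fold differences were fewer, 431 higher (3.16%) and 343 lower (2.51%). The 4 values at 96 h and the 4 at 2 h did not overlap for 5425 probe sets (39.7%), with all 96 h values above all 2 h values for 2510 (18.4%) and below them for 2915 (21.4%). The median log2 fold was -0.02 over all probe sets tested, 0.56 among those higher and -0.53 among those lower. Of the probe sets that rose, 1284 named 1 gene, 34 named several and 1293 named none in the platform annotation. Among those that fell, 1680 named 1 gene, 81 several and 1336 none, so the genes named here are a part of the response.

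All levels are log2 values of the authors' scaled intensity plus a pseudocount of 4.35, and differences are log2 folds of 96 h over 2 h, 4 arrays against 4, each followed by its fitted standard error (SE). A level cannot be compared between probe sets. In whole leaves, fewer cells of a type and less RNA per cell cannot be told apart. The median intensity per array lay between 41.9 and 47.0, and arrays of one time correlated across probe sets with a mean r of 0.981 at 2 h and 0.978 at 96 h. Of 57 genes fixed as markers of other tissues and cell types, 5 had a probe set that names them and 4 were tested. The mesophyll gene RCA and the trichome gene TRY were higher at 96 h, by 0.42 ± 0.15 and 0.53 ± 0.19, as was AT5G18600 of the phloem list (0.55 ± 0.21), and the guard cell gene FMA differed by 0.03 ± 0.17 (adjusted p = 0.89). RCA was at 0.15 with quantile normalization. It was lost with the actin covariate (0.23, adjusted p = 0.404) and without 2 h replicate 2 or 96 h replicate 2 or 3 (adjusted p up to 0.089). TRY was lost without 2 h replicate 3 or 4 or 96 h replicate 1 or 3 (up to 0.118). AT5G18600 was lost without 2 h replicate 2, 3 or 4 or 96 h replicate 1 or 4 (up to 0.154). The meristem, flower, root, seed, xylem and epidermis lists had no tested member, so those cell types were not checked.

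A measure of RNA quality moved with the comparison. The log2 ratio of the 3′ to the 5′ control probe set for actin was 2.43, 2.77, 2.72 and 2.72 at 2 h and 2.28, 1.29, 1.22 and 1.31 at 96 h. The 2 h arrays were all higher, with means of 2.66 ± 0.15 and 1.53 ± 0.50 (SD, n = 4; 2-sided exact permutation p = 0.0286, the smallest that 4 against 4 allows, adjusted over 3 controls 0.0429). The ubiquitin ratio was also higher on all 2 h arrays, 1.64 ± 0.24 against 1.17 ± 0.14 (exact p = 0.0286, adjusted 0.0429), and the GAPDH ratio was 0.31 ± 0.13 against 0.15 ± 0.10 (exact p = 0.114), with overlapping values. When the actin ratio entered as a covariate, 4208 probe sets passed, 1894 higher and 2314 lower, of which 3833 were among the 5708. Its part in the differences was not tested beyond this covariate, called the actin covariate from here on. Without 96 h replicate 1, whose actin ratio stood apart from its group, 5112 probe sets passed.

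**Figure D1:**
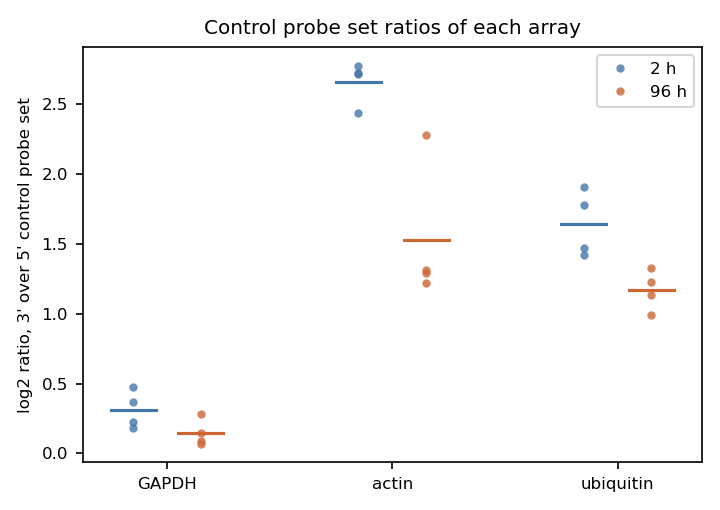
Log2 ratio of the 3′ over the 5′ control probe set (vertical axis) for GAPDH, actin and ubiquitin on each of the 4 arrays at 2 h and the 4 at 96 h. Short bars are group means. For actin the 2 h arrays sit between 2.43 and 2.77 and the 96 h arrays between 1.22 and 2.28.

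The leading genes were chosen among probe sets that passed, name 1 gene and did not overlap between the times. Lack of overlap in these genes was therefore a condition of the choice and is no further support. The largest rise was that of AT3G60420, a locus without a symbol in the annotation. Its levels were 3.96, 4.88, 4.86 and 4.58 at 2 h and 8.37, 7.88, 7.34 and 8.07 at 96 h. Every 96 h array lay more than 2 log2 units above every 2 h array, a 10.2-fold difference (3.35 ± 0.43, adjusted p = 6.07e-07). AT3G16530 followed, with 5.82, 4.02, 6.18 and 4.37 at 2 h and 8.26, 8.68, 8.34 and 7.92 at 96 h. Its 2 h arrays spread widely, below all 96 h arrays (3.20 ± 0.40, adjusted p = 3.77e-07). AT5G52760 stood at 4.17, 4.15, 4.56 and 3.79 at 2 h and 7.47, 6.83, 6.59 and 6.88 at 96 h. The groups did not overlap, and the gene was 6.86-fold higher at 96 h (2.78 ± 0.32, adjusted p = 9.45e-08).

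Among the other leading rises, AT5G48570 is annotated as FKBP65 or ROF2, a peptidyl-prolyl isomerase of the FK506-binding family tied to heat stress. It was measured at 5.88, 5.91, 5.22 and 5.51 at 2 h and 8.70, 8.34, 7.80 and 8.46 at 96 h. All 96 h arrays were high and all 2 h arrays low, 6.49-fold apart (2.70 ± 0.23, adjusted p = 1.03e-09). RING1, a RING-type ubiquitin ligase, read 6.07, 5.56, 6.22 and 5.52 at 2 h and 8.73, 8.31, 7.55 and 8.33 at 96 h. It was 5.24-fold higher at 96 h with no overlap (2.39 ± 0.25, adjusted p = 2.07e-08). AT2G26690 carries the synonym NPF6.2 of the nitrate and peptide transporter family, and read 6.68, 6.56, 6.29 and 6.31 at 2 h and 8.76, 8.56, 8.73 and 8.92 at 96 h. Both groups were tight and well apart (2.29 ± 0.15, adjusted p = 1.54e-11). TBL26 belongs to the trichome birefringence-like family, known for acetylating wall polysaccharides, and read 6.95, 6.99, 6.94 and 6.44 at 2 h and 9.43, 8.82, 9.03 and 8.38 at 96 h. It rose by 2.09 ± 0.21, with no overlap, and its replicate 4 was the lowest array in each group. The other 8 of the 15 largest rises were AT5G24210 (2.60 ± 0.37), AT3G56290 (2.35 ± 0.16), AT5G44580 (2.34 ± 0.19), AT1G68440 (2.29 ± 0.32), AT5G22460 (2.21 ± 0.31), AT5G19240 (2.20 ± 0.14), AT2G27420 (2.15 ± 0.25) and AT1G35710 (2.04 ± 0.17), all without a symbol.

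On this log2 scale the highest rises were in probe sets that the annotation pairs with no gene. Probe set 247780_at was at 2.80, 3.74, 2.48 and 3.37 at 2 h and 8.40, 7.38, 7.43 and 7.67 at 96 h. Its intensities of 2.59, 9.05, 1.23 and 5.99 at 2 h were of the size of the pseudocount, which in part sets the difference (4.62 ± 0.23, and 3.12 with a pseudocount of 50% of the median). Probe set 254265_s_at was at 5.09, 4.34, 4.92 and 3.52 at 2 h and 9.17, 8.86, 8.42 and 9.03 at 96 h. It too did not overlap between the groups, which the choice of these probe sets also required (4.40 ± 0.35, and 3.59 with that pseudocount).

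The largest named fall was that of AT5G47455, at 6.63, 6.74, 6.82 and 6.89 at 2 h and 3.20, 3.63, 5.39 and 4.67 at 96 h. The 2 h arrays were close together and the 96 h arrays spread over more than 2 log2 units below them, a 5.84-fold fall (-2.55 ± 0.30, adjusted p = 1.97e-07). AT2G30600, entered here in the list of genes that rise under carbon starvation, read 7.27, 7.64, 6.85 and 6.70 at 2 h and 4.95, 4.81, 4.63 and 4.54 at 96 h. The groups were clear of each other (5.22-fold, -2.38 ± 0.20, adjusted p = 4.49e-10), and a second probe set of the same gene fell by -0.98 ± 0.28. GH3.3, an enzyme that conjugates auxin to amino acids, read 6.34, 6.42, 6.90 and 6.53 at 2 h and 4.05, 4.63, 4.57 and 4.49 at 96 h. Every 96 h array lay below every 2 h array, and the group means were 4.33-fold apart (-2.11 ± 0.27, adjusted p = 5.68e-07).

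AT4G30650, entered in the cold and dehydration list, was at 8.57, 8.57, 8.34 and 8.09 at 2 h and 6.01, 6.66, 6.57 and 6.29 at 96 h. It fell 4.03-fold without overlap (-2.01 ± 0.18, adjusted p = 2.67e-09). OTP81, an organelle RNA editing factor of the pentatricopeptide repeat family, read 5.05, 5.89, 5.84 and 5.77 at 2 h and 3.26, 4.49, 4.59 and 3.05 at 96 h. Its 96 h arrays fell into a higher and a lower pair, all below the 2 h arrays (-1.79 ± 0.37, adjusted p = 0.000306). AT1G29270 read 7.22, 7.23, 7.60 and 7.39 at 2 h and 5.06, 5.44, 5.65 and 5.09 at 96 h. It fell by -2.05 ± 0.19, with all 96 h arrays low. The other 9 of the 15 largest falls were AT1G23100 (-2.06 ± 0.21), AT4G17470 (-2.03 ± 0.53), AT4G17610 (-2.01 ± 0.29), AT1G56300 (-1.94 ± 0.19), AT1G70820 (-1.86 ± 0.15), AT4G17860 (-1.84 ± 0.28), AT5G08520 (-1.79 ± 0.40), AT4G32605 (-1.79 ± 0.34) and AT1G49650 (-1.75 ± 0.16). With the actin covariate AT5G08520 no longer passed (-0.95, adjusted p = 0.159). A pseudocount of 50% of the median moved the linear fold of 11 of the 30 leading genes by over 1.5 times, all of them still passing. It put the log2 fold of AT3G60420 at 2.65, AT5G52760 at 1.99, AT5G47455 at -1.75, GH3.3 at -1.51 and OTP81 at -1.05. With the actin covariate AT3G60420 stood at 4.05, AT3G16530 at 2.46, AT4G17860 at -2.48 and AT4G32605 at -1.14. Among probe sets with no gene, the largest falls were in 259912_at (-2.41 ± 0.27, and -1.53 with the larger pseudocount) and 263548_at (-2.30 ± 0.20).

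**Figure D2:**
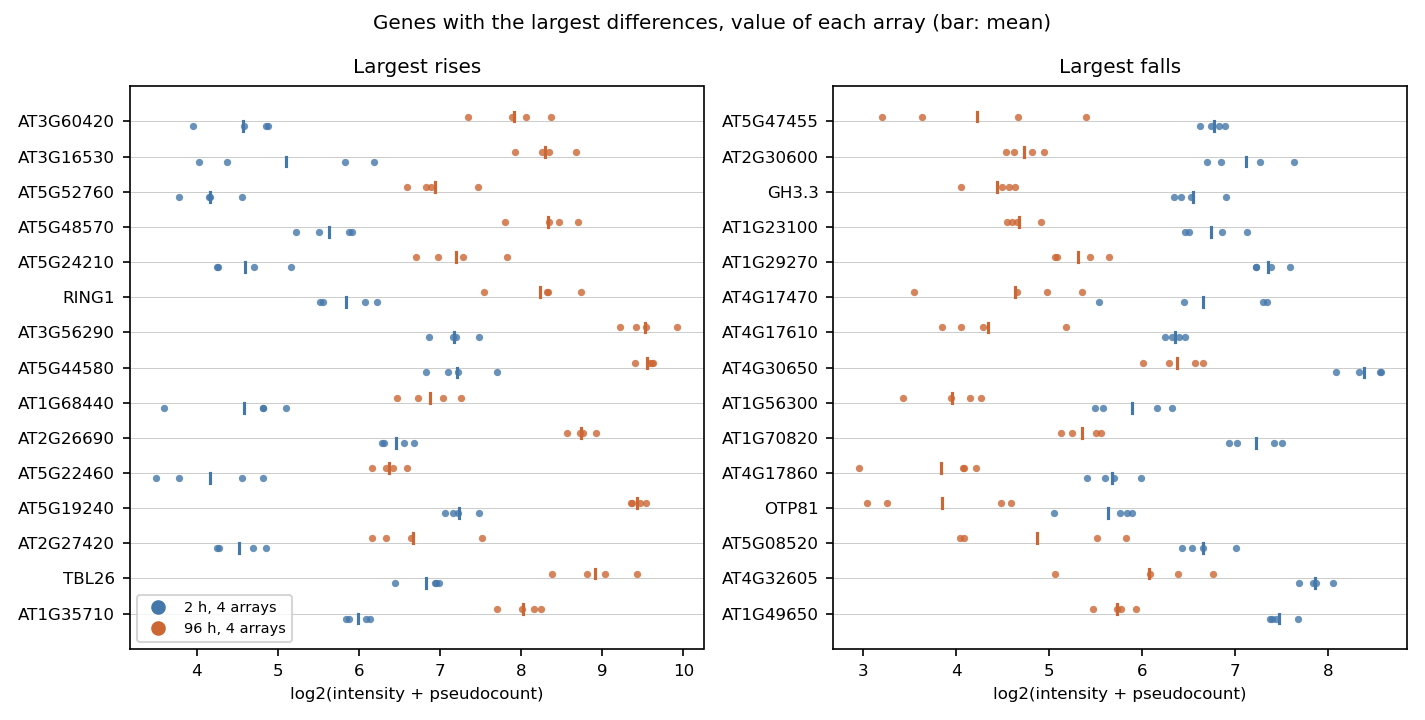
Log2 level (horizontal axis) of the 15 largest rises and 15 largest falls among probe sets that name 1 gene, on each of the 4 arrays at 2 h and the 4 at 96 h. Points are arrays and short bars group means. The groups do not overlap for any of the 30 genes, as the choice of genes required, and for AT3G60420 the 96 h arrays lie between 7.34 and 8.37 and the 2 h arrays between 3.96 and 4.88.

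Genes of cell division were lower at 96 h. Of 10 tested genes of mitosis and cytokinesis 10 fell, with a median of -0.97 against -0.02 over all probe sets tested, where 22.7% fell. The gene 3xHMG-box2, a chromosome-binding HMG-box protein, was at 8.48, 8.55, 8.36 and 8.68 at 2 h and 7.08, 6.82, 7.66 and 7.34 at 96 h. All 96 h arrays were low (-1.30 ± 0.15, adjusted p = 1.34e-07). TOPII, a DNA topoisomerase, was at 6.76, 7.30, 6.85 and 7.39 at 2 h and 5.92, 5.78, 6.16 and 5.97 at 96 h. It too fell without overlap (-1.11 ± 0.18, adjusted p = 1.17e-05). The spindle checkpoint gene BUBR1 read 5.74, 5.70, 5.64 and 5.79 at 2 h and 4.78, 4.61, 4.81 and 4.36 at 96 h. Its groups were about 1 log2 unit apart (-1.08 ± 0.14), and BUB3.1 (-1.15 ± 0.12), 3xHMG-box1 (-1.14 ± 0.16) and KINESIN-12B, a motor of the phragmoplast that builds the new cell wall (-0.87 ± 0.16), fell as well. The 3 Aurora kinases, which act on the mitotic spindle, fell least, AUR2 by -0.66 ± 0.16, AUR3 by -0.65 ± 0.13 and AUR1 by -0.35 ± 0.11. For AUR1 the groups overlapped, and it did not pass without 2 h replicate 1 or 3 or without 96 h replicate 1 or 3 (adjusted p up to 0.0835).

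Of 8 tested genes of DNA replication and chromatin assembly 6 fell and the other two did not pass (median -0.76). The histone chaperone ASF1B was at 7.36, 7.30, 7.54 and 7.06 at 2 h and 6.27, 6.25, 6.26 and 6.46 at 96 h. Its 96 h arrays were all low (-1.0 ± 0.14, adjusted p = 1.76e-06). PRL, a subunit of the MCM replicative helicase, fell by -0.85 ± 0.11, PSF2 of the GINS complex by -0.79 ± 0.13, the chromatin remodeller CHR17 by -0.78 ± 0.12, POLA3 of the primase complex by -0.55 ± 0.11 and the helicase RECQ4A by -0.74 ± 0.29 (adjusted p = 0.0433, lost without any 1 of 7 arrays, all but 2 h replicate 3, at up to 0.115). The DNA polymerase gene ICU2 was at -0.30 ± 0.14 (adjusted p = 0.0927, and 0.0481 without 2 h replicate 1) and SGA2 at -0.01 ± 0.12, and neither passed. SIM, an inhibitor of cyclin-dependent kinases that promotes endoreduplication, read 7.56, 7.69, 7.40 and 7.47 at 2 h and 6.34, 6.74, 6.89 and 6.11 at 96 h. It fell with the cycle genes, without overlap (-1.01 ± 0.15, adjusted p = 6.08e-06).

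All 10 tested core and linker histone genes fell, with a median of -1.14. HTB1, a histone H2B, was at 8.80, 9.02, 9.17 and 9.20 at 2 h and 7.89, 7.90, 7.98 and 7.54 at 96 h. It fell 2.32-fold with no overlap (-1.22 ± 0.12, adjusted p = 7.2e-09). The list also held AT2G28720 (-1.64 ± 0.23), AT2G37470 (-1.46 ± 0.14), AT3G09480 (-1.40 ± 0.16), HTB2 (-1.18 ± 0.20), HTB11 (-1.10 ± 0.10), AT1G06760 (-1.06 ± 0.09), HTB4 (-0.96 ± 0.11), AT2G30620 (-0.76 ± 0.08) and HTR12, the centromeric histone H3 (-0.58 ± 0.18). HTR12 did not pass without 2 h replicate 3 (adjusted p = 0.0622). Histone and ribosomal protein families hold near-identical copies, and hybridisation of a probe set to more than 1 of them was not tested.

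Cytosolic ribosomal protein genes were lower by a smaller amount. Of 43 tested genes of the 40S subunit 28 fell and the rest did not pass, with a median of -0.37, and 27 fell with the actin covariate. The largest fall in the list was in AT1G23410, at 7.58, 8.05, 7.84 and 7.80 at 2 h and 6.07, 6.26, 6.36 and 6.42 at 96 h. All its 96 h arrays were low (-1.54 ± 0.14, adjusted p = 4.14e-09), and AT4G30800 (-1.18 ± 0.11) and AT4G39200 (-0.98 ± 0.22) came next. Of 77 tested genes of the 60S subunit 55 fell and the rest did not pass, with a median of -0.40, and 49 fell with the actin ratio as a covariate. AT3G55170 fell by -0.91 ± 0.20, AT1G07070 by -0.89 ± 0.10 and AT1G36240 by -0.87 ± 0.23. These genes differed little at 24 h, where the list medians against 2 h were -0.05 and -0.03, and more at 48 h, where they were -0.21 and -0.19.

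Subunits of the nuclear RNA polymerases fell further than the ribosomal proteins. Of 9 tested, 8 fell (median -0.85) and 7 did with the actin covariate, a list written after values had been seen. NRPC2, the second largest subunit of polymerase III, was at 6.73, 6.95, 6.84 and 6.92 at 2 h and 5.66, 5.86, 5.99 and 5.90 at 96 h. The groups were about 1 log2 unit apart (-1.01 ± 0.12, adjusted p = 3.68e-07). NRPE7 fell by -0.94 ± 0.22 and NRPB7 by -0.92 ± 0.17, while NRPA2 of polymerase I was at -0.30 ± 0.13 and did not pass, except without 2 h replicate 1 or 96 h replicate 2 (adjusted p = 0.0137 at the lowest) and in 3 other settings.

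Among 12 tested pentatricopeptide repeat and organelle RNA processing genes, also listed after values had been seen, 4 fell and 1 rose. These were 33.3% and 8.33%, where 22.7% and 19.1% of all probe sets fell and rose. Besides OTP81, PPR596 was at 7.70, 8.28, 8.37 and 8.34 at 2 h and 7.02, 7.26, 6.93 and 6.96 at 96 h. Its 96 h arrays were all low (-1.13 ± 0.14), as were those of PPR336 (-0.98 ± 0.14). CRR42 was the 1 that rose (0.40 ± 0.12). Of the 9 tested probe sets for mitochondrion-encoded genes 0 passed in limma, and 0 at an unadjusted p under 0.05 (median 0.05), though 1 fell without 96 h replicate 4.

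**Figure D3:**
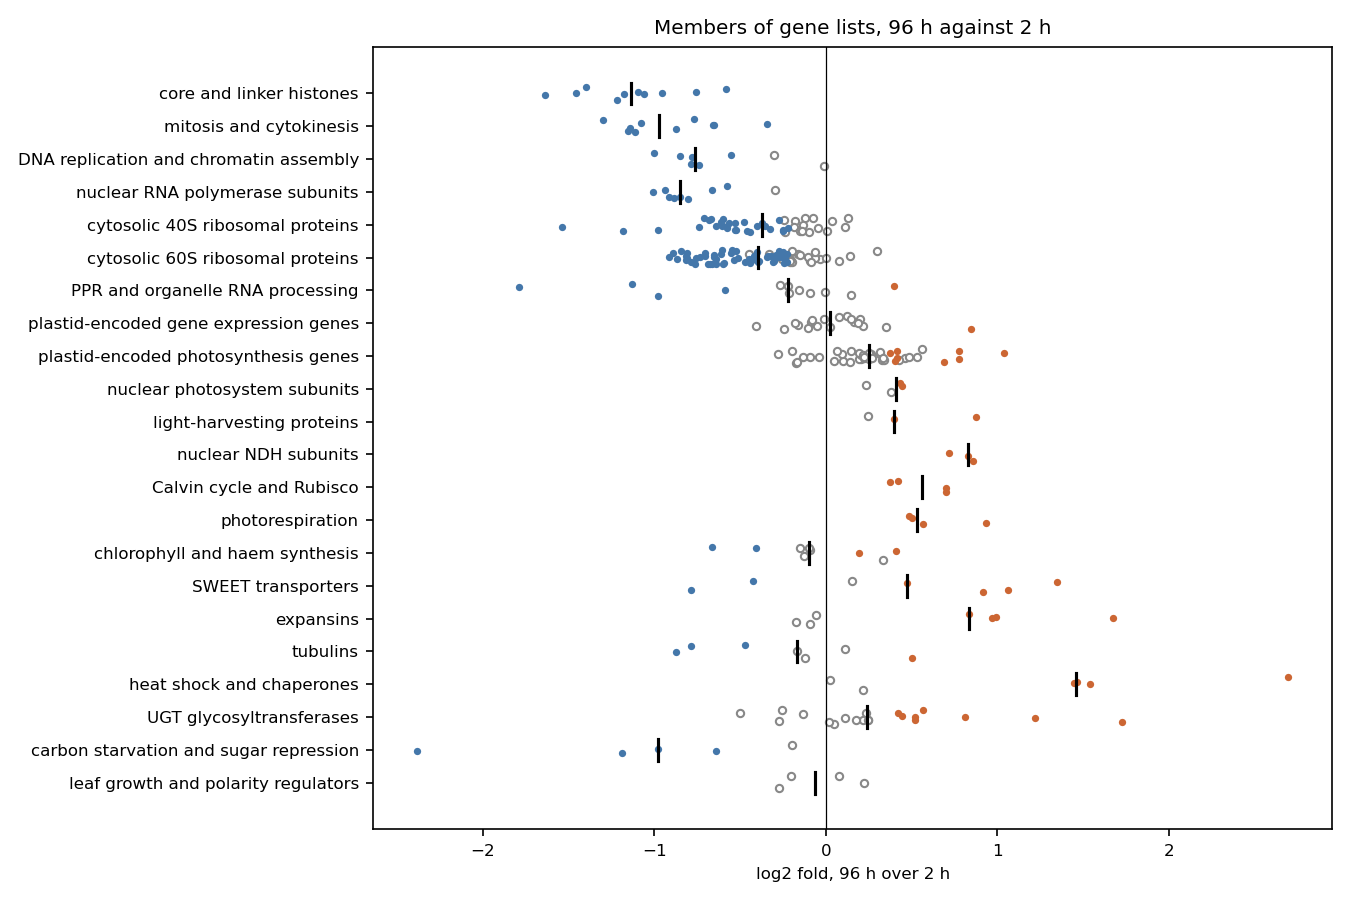
Log2 fold of 96 h over 2 h (horizontal axis) for the tested members of 22 gene lists. Each point is a probe set, orange where it rose, blue where it fell and open where it did not pass an adjusted p of 0.05, and black bars are list medians. Histones and mitosis genes all lie below 0, with medians of -1.14 and -0.97, and photorespiration and Calvin cycle genes all lie above it.

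Genes of photorespiration and of the Calvin cycle were higher at 96 h. Of 4 tested photorespiration genes 4 rose (median 0.54, where 19.1% of all probe sets rose). HPR, a hydroxypyruvate reductase of the peroxisome, was at 10.26, 9.95, 9.98 and 10.11 at 2 h and 11.17, 11.16, 10.85 and 10.86 at 96 h. All 96 h arrays were higher (0.93 ± 0.13, adjusted p = 2.65e-06), and AT1G80380 (0.57 ± 0.10), AT1G32470 (0.50 ± 0.08) and AT1G11860 (0.49 ± 0.10) of the same list followed. Of 4 tested Calvin cycle genes 4 rose, phosphoribulokinase PRK by 0.70 ± 0.14, sedoheptulose bisphosphatase SBPASE by 0.70 ± 0.11, Rubisco activase RCA by 0.42 ± 0.15 and AT1G56190 by 0.38 ± 0.11. SBPASE was at 10.51, 10.45, 10.55 and 10.59 at 2 h and 11.24, 11.28, 11.25 and 11.13 at 96 h. Its groups were tight and apart (adjusted p = 8.19e-06). With the actin ratio as a covariate 1 of the 4 Calvin cycle genes rose, while all 4 photorespiration genes still did.

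The chloroplast NDH complex carries electrons in cyclic flow around photosystem I. Its 3 tested nuclear subunits rose (median 0.83), NdhL by 0.86 ± 0.13, NdhN by 0.83 ± 0.12 and NdhS by 0.72 ± 0.15. NdhN read 8.25, 8.25, 7.98 and 7.78 at 2 h and 9.17, 8.81, 8.76 and 8.84 at 96 h. The 96 h arrays were all higher (adjusted p = 2.67e-06). Of the LHCB4 antenna proteins of photosystem II, LHCB4.3 rose by 0.87 ± 0.14, from 8.42, 8.74, 8.08 and 8.51 at 2 h to 9.60, 9.31, 9.19 and 9.16 at 96 h. Both groups were apart. LHCB4.1 rose by 0.40 ± 0.12 and LHCB4.2 did not pass (0.25 ± 0.15). The difference of LHCB4.1 was 0.06 with quantile normalization (adjusted p = 0.392) and 0.22 with the actin covariate (adjusted p = 0.313), and it passed in neither. Of 4 nuclear photosystem subunits PSBY (0.44 ± 0.10) and PSAN (0.44 ± 0.11) rose and PSAE-1 (0.38 ± 0.16) and PSBW (0.23 ± 0.15) did not pass. PSAE-1 passed without 2 h replicate 1 (adjusted p = 0.033). With the actin ratio as a covariate 0 of the 4 photosystem subunits passed in limma, 2 at an unadjusted p under 0.05, and 1 of the 3 LHCB4 genes did.

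Of 42 tested plastid-encoded photosynthesis genes 8 rose, 19.0% where 19.1% of all probe sets rose, and the rest did not pass (median 0.25, and 0.14 with quantile normalization). With the actin covariate 5 rose and 1 fell, and in a fit of the arrays of the 2 groups alone 16 rose. Without 96 h replicate 2 the count was 4, and it was 5 without 2 h replicate 2 or 3 or 96 h replicate 4. The photosystem II gene psbD was at 9.76, 9.46, 9.04 and 9.36 at 2 h and 10.09, 10.39, 10.13 and 10.13 at 96 h. It rose by 0.78 ± 0.21 (adjusted p = 0.0037), and the NDH genes ndhK (0.78 ± 0.21) and ndhG (0.69 ± 0.18) and the ATP synthase gene atpH (1.04 ± 0.38) rose as well. For atpH the call was lost without 2 h replicate 2 or 96 h replicate 2, 3 or 4 (adjusted p up to 0.0763). Of 19 plastid genes of transcription and translation 1 rose, the RNA polymerase gene rpoB, whose groups overlapped (0.85 ± 0.34, adjusted p = 0.0436, lost without any 1 of 6 arrays, all but 2 h replicate 4 and 96 h replicate 1, at up to 0.121). With the actin covariate 0 of these 19 rose in limma, 1 at an unadjusted p under 0.05, and 2 fell, so the direction of the list's calls turned.

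In chlorophyll synthesis, 2 of 9 tested genes rose and 2 fell, 22.2% each way. These shares were near the 19.1% and 22.7% of all probe sets that rose and fell. PORB, a light-dependent protochlorophyllide reductase, was at 10.29, 9.98, 9.87 and 10.27 at 2 h and 9.22, 9.46, 9.65 and 9.43 at 96 h. It fell without overlap (-0.66 ± 0.14, adjusted p = 0.000495), and CHLI2, a subunit of magnesium chelatase, fell by -0.41 ± 0.10. CHLI2 was lost with the actin covariate (-0.34, adjusted p = 0.0751). AT1G74470 of that list rose by 0.41 ± 0.11, and the methyltransferase gene CHLM by 0.19 ± 0.08 (adjusted p = 0.0461, lost in 5 other settings and without any 1 of 6 arrays, all but 2 h replicate 4 and 96 h replicate 1, at up to 0.133). Of 4 tested antioxidant genes 3 rose, GR1 (0.97 ± 0.13) and GR (0.61 ± 0.10), both glutathione reductases, and the thylakoid ascorbate peroxidase TAPX (0.40 ± 0.09), while the stromal SAPX was at -0.28 ± 0.12 (adjusted p = 0.0666, and 0.0429 or less without 2 h replicate 1 or 3).

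ATSPS4F, a sucrose phosphate synthase and the 1 tested member of its list, which was written after values had been seen, was at 5.15, 4.49, 4.61 and 4.55 at 2 h and 7.38, 6.82, 6.58 and 6.17 at 96 h. It was 4.11-fold higher at 96 h with no overlap (2.04 ± 0.21, adjusted p = 2.63e-08). Of 7 tested SWEET genes, which code for sugar carriers, 4 rose and 2 fell, and with the actin covariate 3 rose and 1 fell. SWEET11, known for sucrose efflux towards the phloem, was at 6.42, 6.17, 6.51 and 6.31 at 2 h and 8.25, 7.42, 7.56 and 7.59 at 96 h. All 96 h arrays were higher (1.35 ± 0.17, adjusted p = 3.69e-07), and SWEET2 (1.07 ± 0.12), SWEET1 (0.92 ± 0.10) and SWEET13 (0.47 ± 0.15) rose too, SWEET13 not without 96 h replicate 4 (adjusted p = 0.0637) or with the actin covariate (0.26, adjusted p = 0.338). SWEET16 and SWEET17, carriers of the vacuole membrane, fell by -0.79 ± 0.16 and -0.42 ± 0.17, the latter with overlapping groups and lost in 6 other settings and without any 1 of 5 arrays, 2 h replicates 1, 2 and 3 and 96 h replicates 1 and 4, at an adjusted p of up to 0.244. SWEET4 did not pass (0.15 ± 0.17).

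Of 5 tested probe sets of the carbon starvation list 4 fell, 2 of them of AT2G30600. AT3G62550 was at 5.72, 5.39, 5.14 and 5.14 at 2 h and 3.88, 4.12, 4.17 and 4.47 at 96 h. Its 96 h arrays were all low (-1.19 ± 0.18, adjusted p = 8.87e-06). MCCB, a subunit of methylcrotonyl-CoA carboxylase in leucine breakdown, fell by -0.64 ± 0.13, and its partner MCCA was at -0.20 ± 0.16 and did not pass. In starch metabolism DPE1, a disproportionating enzyme of starch breakdown, was at 7.03, 6.78, 6.59 and 6.75 at 2 h and 5.65, 5.73, 5.97 and 5.90 at 96 h. It fell without overlap (-0.97 ± 0.11, adjusted p = 4.15e-08), and the starch-phosphorylating enzyme PWD fell by -0.25 ± 0.09 (adjusted p = 0.0245, 0.226 when the actin ratio is a covariate, and lost without 2 h replicate 1 or 2 or 96 h replicate 2 or 3, at up to 0.103). Of the cold list, COR15B fell by -0.72 ± 0.19, and COR47 (-0.47 ± 0.23) and COR15A (-0.11 ± 0.31) did not pass. With the actin covariate COR15B was lost (adjusted p = 0.0615) and COR47 passed (-0.85, adjusted p = 0.0266), as COR47 did in 3 other settings.

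Cell wall genes moved in both directions. Of 7 tested expansins 4 rose (median 0.83), and 3 rose with the actin covariate, EXPA8 being lost (adjusted p = 0.0654). Without the filter on low values 5 of all 19 expansin probe sets rose and 1 fell, with a median of 0.00. EXPB1 was at 6.29, 6.11, 6.50 and 6.52 at 2 h and 7.89, 8.03, 8.12 and 8.08 at 96 h. It was 3.19-fold higher at 96 h with no overlap (1.67 ± 0.17, adjusted p = 1.23e-08). EXLB1 (0.99 ± 0.15), EXPA8 (0.97 ± 0.24) and EXPB3 (0.83 ± 0.14) rose, while EXPA9 (-0.17 ± 0.14) and EXPA4 (-0.09 ± 0.15) did not pass. The xyloglucan endotransglucosylase XTH32 read 8.94, 8.67, 8.90 and 8.72 at 2 h and 9.77, 9.78, 9.93 and 9.88 at 96 h. It rose by 1.03 ± 0.09 (adjusted p = 8.97e-10). XTH16 fell by -0.36 ± 0.14 (adjusted p = 0.0464, 0.0909 with the actin covariate, and lost without any 1 of 6 arrays, all but 2 h replicate 4 and 96 h replicate 3, at up to 0.147).

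Of 11 tested glycosyl hydrolases of family 9, the endoglucanase family, and pectin methylesterases, a list written after values had been seen, 6 rose and 3 fell, and with the actin covariate 4 rose and 2 fell. PMEPCRF, a pectin methylesterase, was at 7.62, 7.87, 7.75 and 7.80 at 2 h and 8.90, 8.98, 9.12 and 9.04 at 96 h. It rose without overlap (1.25 ± 0.13, adjusted p = 2.42e-08), as did GH9B8 (1.19 ± 0.17) and GH9C2 (1.01 ± 0.09). Of 7 tested tubulin genes, the subunits of microtubules, 3 fell and 1 rose, or 42.9% and 14.3%. Of all probe sets 22.7% fell and 19.1% rose. TUB7 was at 8.83, 8.84, 8.86 and 9.05 at 2 h and 7.99, 8.10, 8.25 and 8.10 at 96 h. Its 96 h arrays were all low (-0.78 ± 0.10), and TUB5 (-0.88 ± 0.15) and TUA6 (-0.47 ± 0.08) fell while TUA1 rose by 0.50 ± 0.11.

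Chaperone genes of the heat shock list were among the strongest rises. Of 6 tested genes of heat shock and chaperones 4 rose (median 1.46). Hsp70-2 was at 7.30, 7.16, 7.21 and 7.22 at 2 h and 9.04, 8.62, 8.56 and 8.83 at 96 h. The 96 h arrays were all more than 1 log2 unit higher (1.54 ± 0.09, adjusted p = 4.48e-12). AT3G09440 was at 9.87, 9.62, 9.74 and 9.77 at 2 h and 11.26, 11.25, 11.20 and 11.17 at 96 h. Its groups were tight and did not overlap (1.47 ± 0.11, adjusted p = 8.02e-11). AT2G20560 rose by 1.45 ± 0.18, and AT5G48570 is given above. SGT1A, a co-chaperone of immune receptors, rose by 1.57 ± 0.14. Not all folding genes rose. Of 3 tested genes of protein folding in the endoplasmic reticulum 1 rose and 2 fell (median -0.29). With the actin covariate 1 of these fell and the rest did not pass.

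Few genes of the defence lists had a probe set that names them. Besides RING1, CHI of the chitinase list was at 4.73, 4.96, 6.44 and 5.26 at 2 h and 8.03, 7.53, 6.22 and 7.52 at 96 h. It rose by 1.98 ± 0.44 (adjusted p = 0.000634), though 96 h replicate 3 lay below 2 h replicate 3. Of 6 tested defensin genes 0 passed in limma, and 3 at an unadjusted p under 0.05, while with array weights 2 fell. PDF1.2, a defensin known as a jasmonate marker, was at 5.74, 5.78, 9.19 and 6.10 at 2 h and 8.13, 8.03, 7.27 and 6.72 at 96 h. At 2 h, replicate 3 lay more than 3 log2 units above the other 2 h arrays, and the difference was 0.83 ± 0.65 (adjusted p = 0.325). PDF1.2b was at 5.94, 5.93, 9.45 and 5.78 at 2 h and 9.39, 8.74, 7.40 and 7.86 at 96 h. The same array stood apart, and the difference was 1.57 ± 0.76 (adjusted p = 0.101). Without 2 h replicate 3 both passed, PDF1.2 at 1.66 (adjusted p = 0.0231) and PDF1.2b at 2.46 (adjusted p = 0.00629). The genes are close copies, and hybridisation of either probe set to the other was not tested.

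MT1C, a metallothionein, was at 4.82, 6.01, 5.28 and 5.21 at 2 h and 7.53, 6.63, 6.97 and 6.07 at 96 h. It rose without overlap (1.47 ± 0.32, adjusted p = 0.00053). NDB2, an external NADH dehydrogenase of mitochondria, rose by 1.56 ± 0.17. WRKY47 (0.85 ± 0.17) was the 1 of 4 tested WRKY factors that rose, 25.0% where 19.1% of all probe sets rose. Without 2 h replicate 4, or without 96 h replicate 2 or 4, 2 of them rose. Of 5 tested tetraspanins, membrane proteins that organise other proteins, TET3 (0.94 ± 0.14), TET8 (0.79 ± 0.13) and TET2 (0.79 ± 0.15) rose and 1 fell, a fall lost without 96 h replicate 1.

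Enzymes of small-molecule conjugation were among the rises. Of 20 tested UGT glycosyltransferases 8 rose and 12 did not pass (median 0.24), and 7 rose with the actin covariate. UGT87A2 was at 5.83, 5.89, 5.76 and 5.78 at 2 h and 7.79, 7.37, 7.12 and 7.89 at 96 h. It was 3.31-fold higher at 96 h with no overlap (1.73 ± 0.13, adjusted p = 1.68e-10). GT72B1 rose by 1.22 ± 0.16, and UGT78D2 (0.81 ± 0.16) and UGT78D1 (0.57 ± 0.12), which glycosylate flavonols, rose too. Of 6 glutathione S-transferases 4 rose and 1 fell. GSTU16 was at 5.10, 5.02, 5.33 and 5.70 at 2 h and 7.09, 6.66, 6.61 and 6.87 at 96 h. It rose without overlap (1.52 ± 0.15, adjusted p = 6.54e-09), GSTU18 rose by 0.83 ± 0.12 and GSTU26 fell by -1.01 ± 0.15. In phenylpropanoid metabolism HCT, a hydroxycinnamoyl transferase of lignin synthesis, rose by 1.31 ± 0.08 and CHIL, a chalcone isomerase-like protein, by 1.24 ± 0.17, while the dihydroflavonol reductase DFR was at -0.47 ± 0.28 and did not pass, except in the fits of the arrays of the 2 groups alone (adjusted p = 0.0134 without the replicate number as a block).

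BCAT4, which starts the methionine chain elongation of glucosinolate synthesis, rose by 1.10 ± 0.26, and UGT74B1 of the same pathway did not pass (0.24 ± 0.18). Of 9 tested genes of methionine metabolism, listed after values had been seen, 6 rose and 1 fell, and with the actin covariate 4 rose and 1 fell. Methionine gamma-lyase MGL was at 5.99, 5.98, 6.29 and 6.49 at 2 h and 7.49, 7.21, 7.21 and 7.39 at 96 h. It rose without overlap (1.14 ± 0.17), as did ARD4 of methionine salvage (1.16 ± 0.18), and the homocysteine methyltransferase HMT-1 fell by -0.94 ± 0.10. Of 14 serine carboxypeptidase-like genes 4 rose (28.6%, where 19.1% of all probe sets did) and 2 fell (14.3%, where 22.7% did). With the actin covariate 3 rose and 1 fell. The largest rise in this list was that of scpl46 (2.03 ± 0.23). CYP71B24 rose by 1.00 ± 0.16 and CYP71B26 fell by -1.21 ± 0.13. Among 7 tested CYP71 genes 3 rose (42.9%) and 1 fell (14.3%), and with the actin covariate 2 rose and 1 fell.

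Of 5 tested genes tied to leaf ageing 3 rose and 1, the autophagy gene ATG8E, fell. The rises were those of GAMMA-VPE by 0.59 ± 0.18, BETA-VPE by 0.31 ± 0.12 and APG8A by 0.30 ± 0.12, the first 2 coding for vacuolar processing enzymes. With the actin covariate 0 of the 5 rose in limma, 1 at an unadjusted p under 0.05, and 1 fell. Without 2 h replicate 2 or 96 h replicate 1 GAMMA-VPE was lost (adjusted p up to 0.0534), and BETA-VPE and APG8A were each lost without any 1 of 6 arrays (up to 0.169), all but 2 h replicate 3 and 96 h replicate 1 for BETA-VPE and all but replicate 3 of both times for APG8A. Of 10 tested autophagy genes APG8A rose and ATG8E fell, 10.0% each way, where 19.1% of all probe sets rose and 22.7% fell. With the actin covariate 2 fell and 0 rose in limma, also at an unadjusted p under 0.05. ATG8E was at 7.04, 6.18, 5.62 and 5.97 at 2 h and 4.97, 5.53, 5.33 and 4.50 at 96 h. All 96 h arrays were below the 2 h arrays (-1.12 ± 0.31, adjusted p = 0.00426).

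Of the clock list 3 genes were measured. GI, a central clock component, was at 6.01, 5.93, 5.82 and 5.80 at 2 h and 5.90, 5.99, 5.96 and 5.98 at 96 h. The groups overlapped (0.07 ± 0.16, adjusted p = 0.775). AT5G52660 did not pass (0.22 ± 0.14). CCL was at 8.83, 8.19, 7.92 and 7.94 at 2 h and 6.70, 6.69, 6.43 and 6.40 at 96 h. All 96 h arrays were more than 1 log2 unit below all 2 h arrays (-1.66 ± 0.16, adjusted p = 7.71e-09). HYH, a bZIP factor of light signalling close to HY5, was at 5.48, 5.29, 5.13 and 5.15 at 2 h and 7.49, 6.91, 7.06 and 7.02 at 96 h. It was 3.62-fold higher at 96 h (1.86 ± 0.16, adjusted p = 1.54e-09), and AFR, an F-box protein of far-red signalling, rose by 1.27 ± 0.15.

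Growth regulators mostly did not pass. Among leaf polarity and growth genes, 0 of 4 passed in limma and 1 at an unadjusted p under 0.05, YAB3 at -0.27 ± 0.11 (adjusted p = 0.0533), PHV at -0.20 ± 0.12, NGA2 at 0.08 ± 0.11 and YAB5 at 0.22 ± 0.15. YAB3, which marks the lower leaf side, was at 7.49, 7.46, 7.63 and 7.41 at 2 h and 7.0, 7.31, 7.28 and 7.29 at 96 h. Its groups did not overlap, and it passed in 7 of the other settings. SPCH, which starts the stomatal lineage, was at 6.84, 6.77, 6.82 and 6.59 at 2 h and 6.0, 6.49, 6.37 and 6.07 at 96 h. It was lower on all 96 h arrays (-0.52 ± 0.21, adjusted p = 0.0454), and the call was lost in 6 other settings and without any 1 of 6 arrays, all but 2 h replicate 4 and 96 h replicate 2 (up to 0.126). STOMAGEN, a peptide that promotes stomata, was at 0.02 ± 0.10 and FMA at 0.03 ± 0.17. AGL24, a MADS-box factor of the floral transition, fell by -0.42 ± 0.13 (adjusted p = 0.00899).

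In hormone response, the cytokinin response regulators ARR15 (-0.00 ± 0.18) and RR16 (-0.16 ± 0.12) did not pass. The auxin-conjugating genes WES1 (0.11 ± 0.17) and GH3.9 (0.12 ± 0.20) did not pass either, whereas GH3.3 fell and IAA18 rose by 0.25 ± 0.08. GID1A, a gibberellin receptor, fell by -1.15 ± 0.21.

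The times 24, 48 and 96 h are whole days apart if all hours were counted from 1 start, and 2 h then lies 2 h later in the day than each of them. Leaf age, time of day and the time since any handling at the start of the hours therefore cannot be told apart in the comparison of 96 h with 2 h. Values at 24 h and 48 h against the same 2 h arrays are set beside it. They share those arrays, so their likeness to each other was not tested. Among the 431 probe sets at least 2-fold higher at 96 h the median difference was 0.60 at 24 h, 0.85 at 48 h and 1.30 at 96 h, and 171 of them lay within 0.5 of 0 at 24 h while 70 were already past 1. Among the 343 at least 2-fold lower, the medians were -0.71, -0.83 and -1.18, with 57 within 0.5 of 0 at 24 h and 57 already past -1.

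RING1 differed from its 2 h level by 0.02 at 24 h, 0.83 at 48 h and 2.39 at 96 h. AT3G60420 went from 0.23 to 1.23 and 3.35, AT5G24210 from 0.31 to 0.35 and 2.60, and UGT87A2 from 0.31 to 0.52 and 1.73. These genes had little difference after 1 day and most of it by the last. CHI (-0.27, 0.24 and 1.98), WRKY47 (0.15, -0.09 and 0.85) and SIM (-0.25, -0.28 and -1.01) followed the same order. Against 24 h, the 96 h level of RING1 was higher by 2.37 and that of SIM lower, at -0.76.

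Another set of genes had its difference at 24 h already. HYH stood at 1.55, 1.82 and 1.86, AT5G48570 at 2.46, 2.17 and 2.70, and AT3G09440 at 1.42, 1.29 and 1.47. Among falls, CCL stood at -1.68, -1.79 and -1.66, AT1G70820 at -1.74, -1.68 and -1.86, and CYP71B26 at -1.36, -0.98 and -1.21. For these genes the 3 later times were alike and 2 h stood apart. Steady changes in between were those of ATSPS4F (0.90, 1.58 and 2.04), EXPB1 (0.75, 1.11 and 1.67) and TUB7 (-0.23, -0.49 and -0.78).

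**Figure D4:**
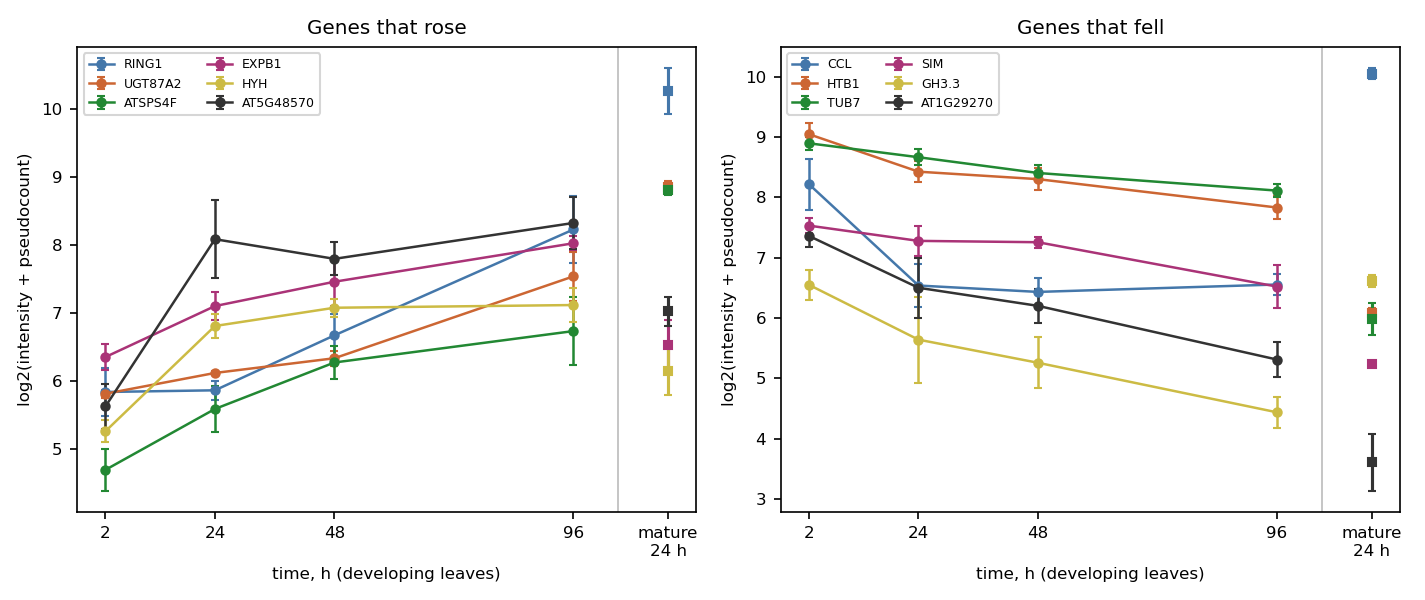
Mean log2 level (vertical axis, bars are SD, n = 4 arrays a time) of 6 genes that rose and 6 that fell, against time in hours in developing leaves, with mature leaves at 24 h (squares, n = 2 arrays) on the right. RING1 stays near its 2 h level at 24 h and rises later, while HYH and AT5G48570 are already high at 24 h and CCL already low.

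Mature leaves, with 2 arrays at 24 h, were set against developing leaves at 24 h, a comparison that shares no array with that of 96 h and 2 h and in which both groups are labelled 24 h. In it 61.7% of probe sets passed, 24.1% higher and 37.6% lower in mature leaves. Of the 2611 probe sets that rose over the 4 days 1612 were higher in mature leaves (61.7%), 308 were lower (11.8%) and 691 were not called. Of the 3097 that fell 2312 were lower in mature leaves (74.7%), 186 were higher (6.01%) and 599 were not called. Across the 13648 probe sets, which are not independent, the log2 folds of the comparisons had a Pearson r of 0.56. With 2 mature arrays, the spread rests mostly on the developing groups.

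Genes that shared a direction included RING1, higher in mature leaves by 4.40 ± 0.30, MT1C (4.69 ± 0.39), ATSPS4F (3.22 ± 0.26), SWEET11 (2.50 ± 0.21) and UGT87A2 (2.73 ± 0.16). TOPII (-3.74 ± 0.22), 3xHMG-box2 (-3.27 ± 0.18), AT1G29270 (-2.90 ± 0.23) and SIM (-2.04 ± 0.19) were lower in mature leaves. Of the 43 tested 40S genes 41, and of the 77 tested 60S genes 75, were lower in mature leaves, with medians of -1.35 and -1.48. Regulators that did not pass over the 4 days could differ here, such as STOMAGEN (-1.97 ± 0.13), YAB3 (-1.59 ± 0.14) and RR16 (-2.13 ± 0.15), and SPCH stood at -3.99 ± 0.25.

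Other genes went opposite ways in the comparisons. CCL fell over the 4 days and was higher in mature leaves by 3.51 ± 0.20, as were AT1G70820 (3.06 ± 0.18), the pyruvate decarboxylase gene PDC2 (3.17 ± 0.35, with -1.08 ± 0.28 over the 4 days, a fall lost with the actin covariate at -0.68 and adjusted p = 0.174), CYP71B26 (2.40 ± 0.16), AT3G62550 (2.88 ± 0.23) and GH3.3 (0.97 ± 0.33). The histone gene AT2G28720 was higher in mature leaves by 1.86 ± 0.28, where 7 of the 10 tested histone genes were lower. HYH rose over the 4 days and was lower in mature leaves (-0.67 ± 0.20), like AT5G48570 (-1.06 ± 0.28), MGL (-1.56 ± 0.21), CHIL (-2.33 ± 0.21), UGT78D2 (-1.22 ± 0.19) and EXPB1 (-0.57 ± 0.21). Of the 7 tested expansins 5 were lower in mature leaves, and EXPA8 was higher (2.61 ± 0.30).

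**Figure D5:**
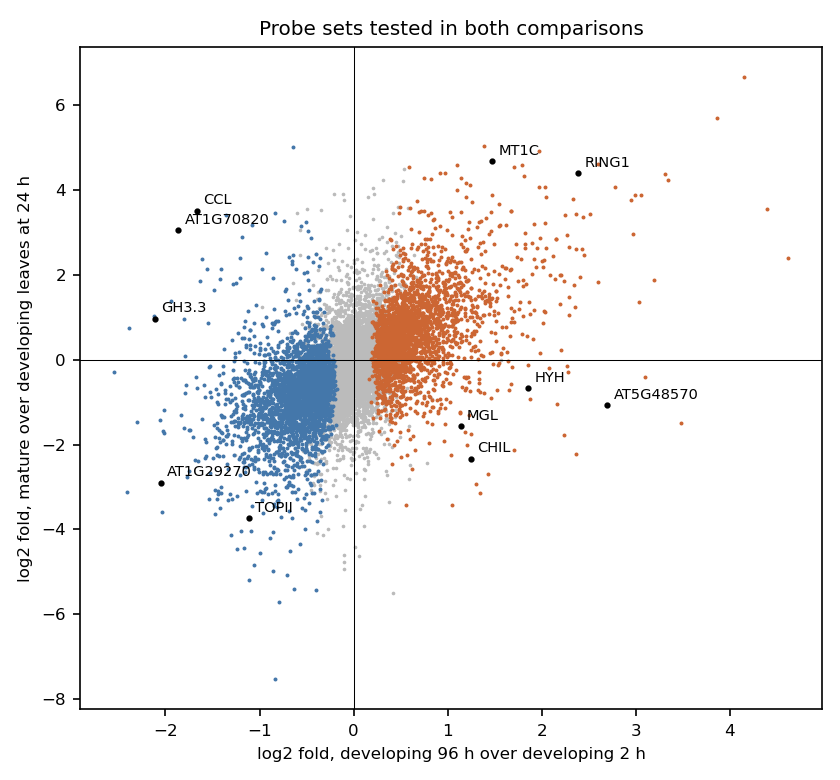
Log2 fold of mature over developing leaves at 24 h (vertical axis, 2 arrays against 4) against the log2 fold of developing leaves at 96 h over 2 h (horizontal axis, 4 against 4), 1 point for each of 13648 probe sets. Orange points rose and blue points fell over the 4 days, and black points are named genes. RING1 and MT1C are high in both and TOPII low in both. CCL lies at the upper left, and HYH lies to the right, a little below 0 on the vertical axis (-0.67).

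By the Pearson correlation of levels over all 26 arrays, the named genes most like AT3G60420 were AT5G18470 (r = 0.944), AT1G16180 (0.912) and AT4G08850 (0.910), which rose over the 4 days by 1.54 ± 0.22, 0.43 ± 0.09 and 1.38 ± 0.14. Those most like AT5G47455 were MRL7-L (0.868), AT4G02930 (0.866) and NRPC2 (0.861), at -1.17 ± 0.11, -1.01 ± 0.13 and -1.01 ± 0.12. The arrays share groups and times, so these correlations describe the series and carry no test.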

How the data were processed

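Transcript levels were measured on Affymetrix ATH1 arrays. The authors deposited 1 linear intensity per probe set and array, made with MAS5 per the submitters' processing notes, and every array had the same mean after 2% was trimmed at each end. Version, settings and detection calls are not given in the sources used here. Of 22810 probe sets the 64 controls were left out. Levels are log2 of the deposited intensity plus 10% of the median, and probe sets under the 40th percentile of mean level were dropped, which left 13648. One limma 3.58.1 fit (R 4.3.3) held all 26 arrays in 7 groups, with an intensity trend and Benjamini-Hochberg adjustment at 0.05. The fit was also run on simulated data with independent noise for each probe set. That run does not measure the error rate under shared effects such as RNA quality. Control ratios had exact permutation tests. The number of arrays limits the precision.

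Probe sets were named through the platform annotation, with symbols from RefSeq (assembly TAIR10.1), where 13436 of 13513 single-gene probe sets matched. Members, lists and tests were chosen with earlier results of these data known. Of 84 gene lists 66 had a tested member. In all, 5 lists were corrected for false matches, 3 were written by locus after the annotation was seen and 7 after values were seen. Named are the 15 largest rises and 15 largest falls that passed, name 1 gene and did not overlap between the times, up to 6 passing and 2 other members of a list, all measured clock, light, floral, stomatal and leaf growth genes, and the 3 genes most like each leader. Outside that rule and chosen after their values were seen are the Aurora kinases, AT1G06760, HTB4, AT2G30620, HTR12, SGT1A, NDB2, HCT, CHIL, AFR, GID1A and PDC2. Alternatives were other pseudocounts and filters, quantile normalization, array weights, no trend, the 2 groups alone, a replicate block, an actin covariate and leaving out each array.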

Additional observations from a re-analysis of the deposited data

Results flagged for a closer look

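In 25 of 406 groups of 4 arrays examined, 1 array stood apart from the other three, with a gap to the nearest of them that, as a share of the group's whole range, was above the 95% critical value of Dixon's test. Chance alone gives about 1 in 20. The values are log2 levels or log2 control ratios, each followed by the range of the other arrays of its group.

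On 2 h replicate 1, EXPA8 (6.81 against 5.62 to 5.77) was high. There, OTP81 (5.05 against 5.77 to 5.89), NRPE7 (5.89 against 5.97 to 5.98), AT4G30800 (8.27 against 8.63) and PPR596 (7.70 against 8.28 to 8.37) were low. On 2 h replicate 2, PDC2 (6.05 against 5.83 to 5.86) was high, and LHCB4.1 (11.23 against 11.48 to 11.52) and LHCB4.2 (10.74 against 11.12 to 11.20) were low. On 2 h replicate 3, SWEET13 (4.98 against 4.59 to 4.64), PDF1.2 (9.19 against 5.74 to 6.10) and PDF1.2b (9.45 against 5.78 to 5.94) were high. On 2 h replicate 4, TUB7 (9.05 against 8.83 to 8.86) was high. There, TBL26 (6.44 against 6.94 to 6.99), EXPA9 (5.23 against 5.47 to 5.51) and AT4G08850 (6.77 against 7.16 to 7.22) were low.

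On 96 h replicate 1, the actin control ratio (2.28 against 1.22 to 1.31) was high, and atpH (10.03 against 10.86 to 10.88) and YAB3 (7.0 against 7.28 to 7.31) were low. On 96 h replicate 2, psbD (10.39 against 10.09 to 10.13), AGL24 (6.91 against 6.56 to 6.60) and SWEET16 (6.21 against 5.85 to 5.89) were high. On 96 h replicate 3, AT1G74470 (11.62 against 11.43 to 11.44) was high, and COR15B (6.39 against 6.64 to 6.66) was low. On 96 h replicate 4, ASF1B (6.46 against 6.25 to 6.27) was high, and AT4G17860 (2.96 against 4.07 to 4.22) was low.

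Both defensins, PDF1.2 and PDF1.2b, were high on the same 2 h array, and without it both rises passed the threshold, as given in the report. The actin ratio of 96 h replicate 1 lay below the 2 h range of 2.43 to 2.77.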

How the results depend on the processing

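The counts of probe sets past the threshold, in all and in each direction, stayed within 1.5 times of the reported values under all 19 alternatives to the comparison of 96 h with 2 h, as did the counts in mature leaves under theirs. Leaving out 1 array at a time gave 5020 to 5368 probe sets in all, 2245 to 2452 higher, 2723 to 2917 lower, 379 to 463 at least 2-fold higher and 321 to 384 at least 2-fold lower. With a pseudocount of 50% of the median, 181 probe sets fell at least 2-fold in place of 343, since a larger pseudocount shrinks the folds of low values. For single genes, 3575 of 3740 values kept their direction and side of the threshold, and 36 of 200 named probe sets changed their call at least once, including 1 of the 30 leading genes. Of 94 list medians under alternatives 10 moved by more than the spread between arrays. Among them, quantile normalization put the light-harvesting proteins at 0.07 in place of 0.40 and the nuclear photosystem subunits at 0.18 in place of 0.41, and the cause was not tested. Without the filter the expansins stood at 0.00 in place of 0.83, over 19 probe sets in place of 7.

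No pairing of the arrays by replicate number was seen between 2 h and 96 h, which does not show that there was none. Those with the same number at 2 h and 96 h had deviations from their group means that correlated at 0.01, 0.06, -0.11 and 0.01, and none correlated best with its own number. With the replicate number as a block 5887 probe sets passed in place of 5708, 2675 higher and 3212 lower. With the block and the 2 groups alone 5687 did, an alternative chosen after seeing the data. The search for promoter motifs was not run, since no sequences were used here. Without detection calls, levels near the background could not be marked as such for each probe set.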
